A study of Rattus norvegicus with 7 samples.

Results

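Newborn rat ventricular cardiomyocytes transfected with miR-1825 were compared directly with those transfected with miR-590-3p, without passing through the control. A row of the deposited table was used where its RPKM averaged 1 or more across all 7 libraries, which left 12330 of 17141 rows. RPKM are reads scaled to the length of the gene and to the size of the library. 1 library came from cells given miR-1825 and 1 library from cells given miR-590-3p. The other 5 libraries received miR-302d-3p, its relative miR-373-3p, miR-33b*, miR-199a-3p or cel-miR-67, a worm miRNA that the deposited ratios use as denominator. All 7 came from wild-type Wistar rats at postnatal day 0, were transfected at 25 nM and were harvested 72 h later. The atria had been removed and cells that stuck to plastic early were discarded, so the cultures were enriched for cardiomyocytes but not pure. Each miRNA had 1 library, so no difference below has a replicate check and no p-value is given. "Higher" and "lower" describe these libraries, in the order miR-1825 over miR-590-3p, on the scale log2 of (RPKM + 1) over (RPKM + 1).

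A miRNA is a short RNA that pairs through its seed, near its 5′ end, with messenger RNAs and lowers their translation and stability, so 1 miRNA acts on many genes at once. Heart muscle cells of rodents stop dividing soon after birth, and miR-590-3p and miR-199a-3p are known from screens for making newborn rat cardiomyocytes re-enter the cell cycle. That cycle has a phase of DNA replication, run largely by genes under E2F factors, and a later phase of mitosis and cytokinesis, run by genes under B-Myb, FoxM1 and the MuvB complex. After birth the heart also shifts from glycolysis to the oxidation of fatty acids in mitochondria.

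Reads assigned to listed genes numbered 26779307 in the miR-1825 library and 26468593 in the miR-590-3p library, within the range of 22616067 to 31963293 over the 7 libraries. Transcripts of the mitochondrial genome took 35.5% of those reads in the miR-1825 library and 41.4% in the miR-590-3p library, the highest of the 7, where the lowest was 27.7%. Most of these reads were mitochondrial ribosomal RNA, at 31.8% and 37.3% of listed reads in the same order. The library sizes recovered from the RPKM were 26792042 for miR-1825 and 24422719 for miR-590-3p. Listed reads came to 99.95% and 108.4% of these sizes in the same order. At these sizes 3 reads of a gene of 2 kb are worth 0.0560 RPKM in the miR-1825 library and 0.0614 RPKM in the miR-590-3p library. The filter lay at low levels: *Sh3rf1*, just inside it with a mean of 1.00 RPKM, had 0.947 RPKM with miR-1825 and 0.825 RPKM with miR-590-3p, and *Klhdc7a*, just outside with a mean of 0.999 RPKM, had 1.04 and 0.811 RPKM in the same order. Markers of cardiomyocytes summed to 12640 RPKM in the miR-1825 library and 11906 RPKM in the miR-590-3p library over the 11 of 12 that were measured, against 10743 to 14592 RPKM in the other 5. Fibroblast markers summed to 1272 and 1355 RPKM in the same order over 12 genes, and smooth muscle and pericyte markers to 1949 and 1736 RPKM over 13 genes. Endothelial markers summed to 17.9 and 17.0 RPKM over 6 genes, and leukocyte markers to 17.2 and 16.6 RPKM over 7 genes. The smooth muscle sum with miR-1825 lay above the 1286 to 1790 RPKM of the other 5 libraries, and both endothelial sums lay below their 18.1 to 27.6 RPKM. The largest term of the smooth muscle sum was *Des*, at 865 RPKM with miR-1825 and 703 RPKM with miR-590-3p. The 13 smooth muscle genes did not share its direction: 6 lay above and 7 below the median change of all genes, with a median of −0.13. The part of these cell types in the differences below was not tested. In such cultures fewer cells of a type and less RNA per cell cannot be told apart.

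The transcriptomes made by both miRNAs lay close together. The SD across genes of the log2 change was 0.33, the second smallest of the 21 pairs that 7 libraries can form. Only miR-373-3p with miR-302d-3p, which belong to families known for a shared seed, lay nearer, with an SD of 0.22. The next pair, miR-590-3p with miR-33b*, had 0.35, and the farthest, miR-1825 with miR-302d-3p, had 0.48. Set against cel-miR-67, miR-1825 had an SD of 0.42 and miR-590-3p of 0.35, so each lay farther from that library than from the other. All 21 pairs are drawn from the same 7 libraries and are a description.

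**Figure D1:**
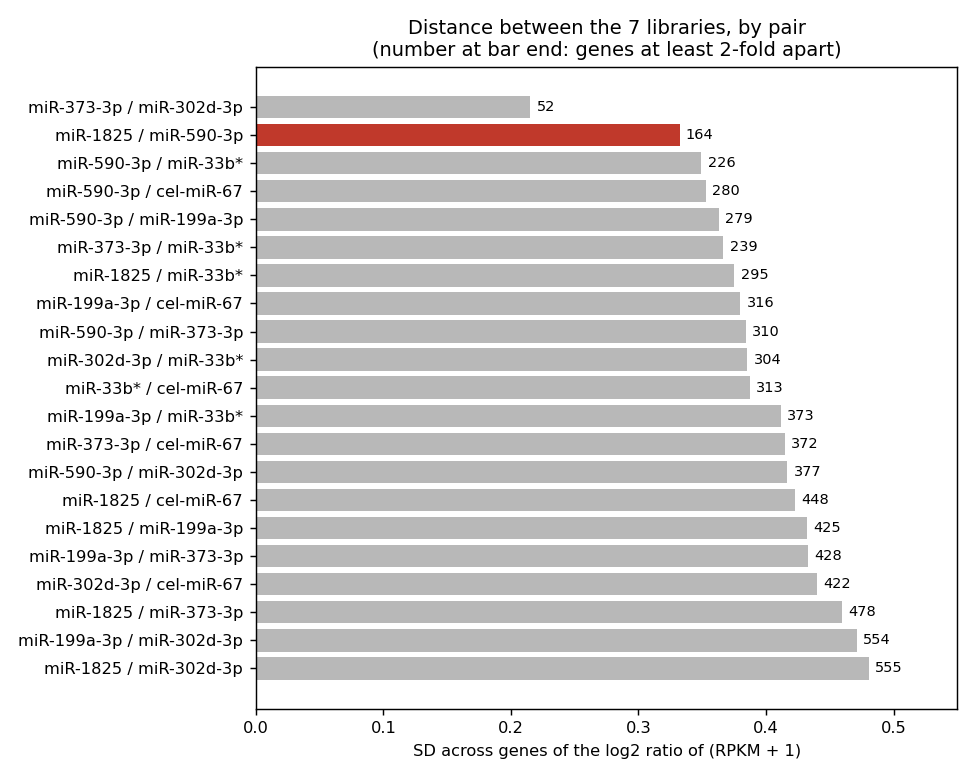
SD across 12330 genes of the log2 ratio of (RPKM + 1) for each of the 21 pairs of libraries, with the number of genes at least 2-fold apart at the end of each bar. The pair miR-1825 and miR-590-3p (red) has an SD of 0.33 and 164 genes, after 52 genes for miR-373-3p with miR-302d-3p and before 226 for miR-590-3p with miR-33b*.

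In all, 164 of 12330 genes (1.33%) lay at least 2-fold apart, 63 (0.511%) higher and 101 (0.819%) lower with miR-1825. For miR-302d-3p against miR-373-3p the same limits gave 35 (0.284%) and 17 (0.138%). The median change over all genes was 0.01 and 72.5% of genes lay within 0.3 of 0. The split of higher against lower depended on the scaling: with reads scaled to the total of listed genes the median moved to 0.11 and the counts became 83 higher and 74 lower. Lists of genes are therefore described relative to the all-gene median.

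The kinds of gene on each side differed. Of the 101 lower rows 76 were protein-coding, against 18 of the 63 higher rows. Over all 12330 rows 11311 were protein-coding and 590 were short RNAs, so short RNAs were overrepresented on both sides. The higher rows held 43 short RNAs, 18 of them small nucleolar RNAs and 15 miRNA rows, which a library of messenger RNA captures poorly. The 43 had a median of 16 reads in both libraries together, but some were not low. Of the miRNA rows, AABR07015042.1 was at 1015 RPKM with miR-1825 and 125 RPKM with miR-590-3p, and AABR07015055.2 at 999 and 147 RPKM. AABR07015080.1 was at 494 and 53.5 RPKM and AABR07015079.1 at 492 and 52.6 RPKM. For 21 of the 43 higher short RNAs the 95% counting interval of the ratio, which covers counting error only, included no change. The lower rows held 21 short RNAs, with a median of 10 reads and 10 such intervals. The 76 lower protein-coding genes had a median of 747 reads and 1 such interval, and the 18 higher ones had 1538 reads and 0 such intervals.

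Among the 76 protein-coding genes lower with miR-1825, 62 had their lowest value of the 7 libraries there, against 16.5% of all rows. Choosing genes by a low miR-1825 value against miR-590-3p itself favours that rank, so these shares cannot be compared directly. In 46 of the 62 the miR-590-3p value lay inside the range of the other 5 libraries, in 14 above that range and in 2 below it. In 4 more genes the miR-590-3p value alone stood above the other 5, and in 10 neither library stood outside. Over all 12330 rows the miR-1825 library lay outside the range of the other 5 in 40.7% and the miR-590-3p library in 31.5%. Among these chosen genes miR-1825 thus lay below the other 5 libraries more often than miR-590-3p lay above them.

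*Tubg1*, the gamma-tubulin from which microtubules grow at the centrosome, was at 4.80 RPKM with miR-1825 and 22.8 RPKM with miR-590-3p, and the other 5 libraries lay at 21.6 to 27.0 RPKM. Its change of −2.04 thus sat in a single library, since the remaining 6 lay between 21.6 and 27.0 RPKM. Its partners in the ring complex from which microtubules grow, looked up afterwards, had changes of 0.07 (*Tubgcp2*), −0.09 (*Tubgcp3*), 0.04 (*Tubgcp4*), 0.04 (*Tubgcp5*) and −0.12 (*Tubgcp6*). *Tomm40*, the channel through which proteins enter mitochondria, showed the same shape, with 14.0 RPKM with miR-1825, 55.2 RPKM with miR-590-3p and 44.1 to 64.7 RPKM elsewhere, a change of −1.90. *Atp6ap2*, an accessory subunit of the proton pump of lysosomes, followed at 7.12 and 23.5 RPKM, with 17.7 to 25.0 RPKM elsewhere. *Tmem63b*, a stretch- and osmolarity-sensitive channel, had a change of −1.43 on 219 reads with miR-1825 and 661 reads with miR-590-3p, and both libraries were below the 10.1 to 11.8 RPKM of the other 5. *Trim72*, which reseals the torn membrane of muscle cells, had 6.15 RPKM with miR-1825 and 17.0 RPKM with miR-590-3p, against 10.1 to 27.0 RPKM.

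Also among the 15 lowest genes were *Uqcrq* (described with the respiratory chain), *Abi2*, *Mageh1*, *Ankrd13c*, *Myl4*, *Glod5*, *Hhatl*, *Mrpl45* and *Arvcf*, with changes between −2.03 and −1.33. *Ankrd13c* and *Myl4* were the ones in which the miR-1825 library was not the lowest of the 7. *Ankrd13c* had 5.17 RPKM with miR-1825 and 18.2 RPKM with miR-590-3p, but 4.32 RPKM with miR-199a-3p. *Myl4*, the essential myosin light chain of atrial and embryonic muscle, had 45.6 RPKM with miR-1825 and 141 RPKM with miR-590-3p. It ran over the widest range of these genes, at 42.6 RPKM with miR-199a-3p, 838 with miR-373-3p, 876 with miR-302d-3p, 182 with miR-33b* and 83.2 with cel-miR-67.

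On the other side 18 protein-coding genes were at least 2-fold higher with miR-1825. The miR-1825 value stood above the other 5 libraries in 14 of them, in 4 of which the miR-590-3p value also lay below all 5, and in 3 more the miR-590-3p value alone stood below. *Arl6ip1*, a protein that shapes the endoplasmic reticulum, was at 87.6 RPKM with miR-1825 and 31.2 RPKM with miR-590-3p, against 30.8 to 60.0 RPKM elsewhere, a change of 1.46. Here miR-1825 stood out. *Dynlt3*, a light chain of the motor dynein, was at 12.0 RPKM with miR-1825 and 3.86 RPKM with miR-590-3p, against 10.7 to 13.1 RPKM elsewhere, so the miR-590-3p library stood out. Its change was 1.42, and the counting interval of the ratio ran from 1.40 to 1.87 in log2. *Enpp1*, which makes extracellular pyrophosphate, and *Ankh*, which exports pyrophosphate and ATP, both had their highest value with miR-1825. *Enpp1* was at 18.1 RPKM with miR-1825 and 7.48 RPKM with miR-590-3p, and *Ankh* at 32.1 and 15.7 RPKM. The chemokine *Ccl20* was at 8.06 RPKM with miR-1825 and 2.55 RPKM with miR-590-3p, its lowest level of the 7, while miR-302d-3p reached 15.6 RPKM. Others among the 15 highest were *Slc4a4*, a sodium bicarbonate cotransporter, *Mgst2*, *Tgfbi*, *Stxbp6*, *Habp4*, *Cers4*, *Hacd2* and *Tmem30a*, with changes between 0.93 and 1.10.

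**Figure D2:**
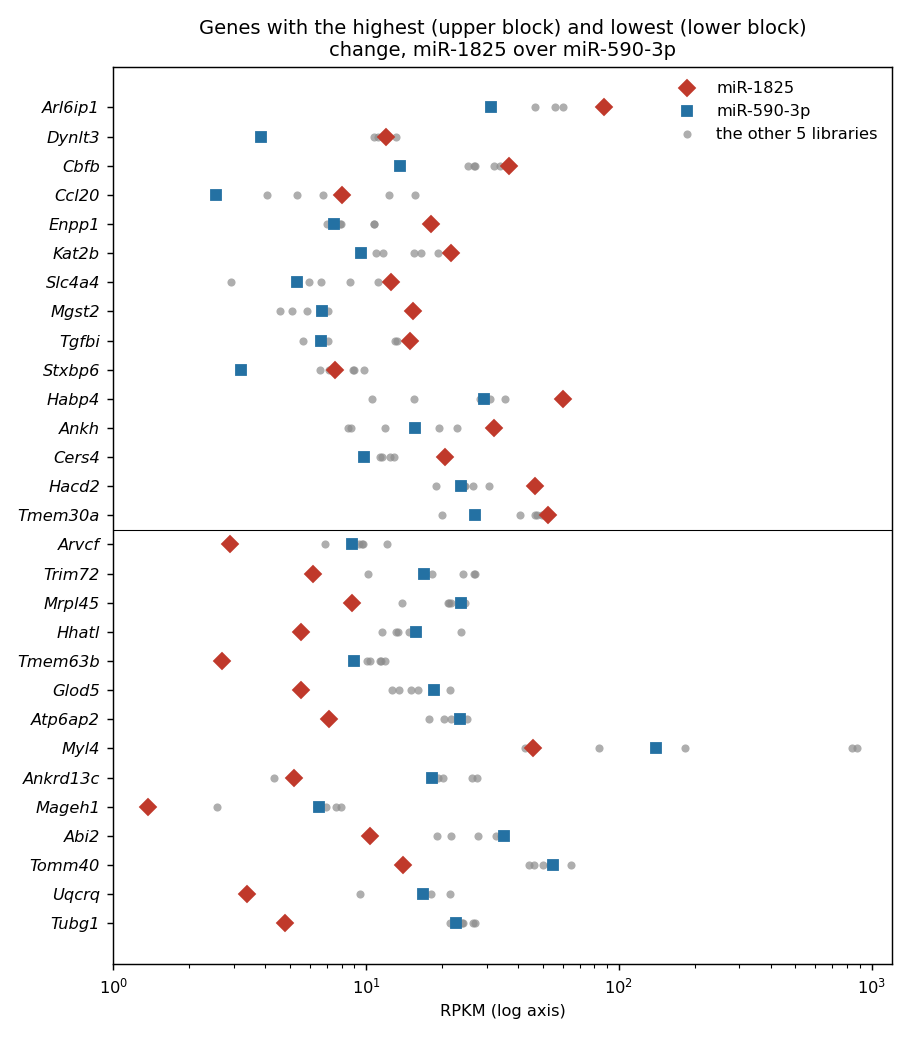
RPKM on a log axis of the 15 genes with the highest change (upper block) and 14 of the 15 with the lowest (lower block), for miR-1825 (red diamonds), miR-590-3p (blue squares) and each of the other 5 libraries (grey points). In the lower block the miR-1825 value lies left of every other library except in *Ankrd13c* and *Myl4*, and in the upper block either miR-1825 lies to the right of the other 5 or miR-590-3p to their left, or both.

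In some genes both libraries lay outside the other 5 in opposite directions. Among 6868 named protein-coding genes averaging 5 RPKM or more, 133 had miR-1825 above and miR-590-3p below all others and 100 the reverse. Over all 12330 rows these patterns held in 220 (1.78%) and 193 (1.57%), and no excess over all rows is claimed. The 8 with the largest change held 2 that were higher with miR-1825. *Cbfb*, the partner subunit of the RUNX factors, was at 36.7 RPKM with miR-1825 and 13.6 RPKM with miR-590-3p, with 25.2 to 33.9 RPKM elsewhere. *Kat2b*, a histone acetyltransferase, was at 21.7 and 9.54 RPKM in the same order, with 10.9 to 19.2 RPKM elsewhere. The reverse pattern was led by *Abi2*, a subunit of the WAVE complex that builds branched actin, at 10.3 RPKM with miR-1825 and 35.2 RPKM with miR-590-3p, with 19.1 to 34.1 RPKM elsewhere. *Fam64a*, a regulator active around mitosis, was at 6.34 and 17.3 RPKM, with 11.6 to 16.1 RPKM elsewhere. The other 4 were *Mgst3*, *Agk*, *Chchd3* and *Rtn4ip1*, of which at least the last 3 encode proteins of mitochondria. *Chchd3*, a part of the complex that shapes the folds of the inner membrane, was at 43.1 RPKM with miR-1825 and 92.1 RPKM with miR-590-3p, with 64.5 to 88.8 RPKM elsewhere.

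Both libraries stood at the top for the genes of mitosis, and miR-1825 was mostly the higher of the pair. Of 91 symbols in 3 mitotic lists (entry kinases and cyclins, kinetochore and checkpoint, cytokinesis), 85 were measured and all 85 passed the filter. In 62 of the 85 both libraries lay above each of the other 5, which held for 1002 of all 12330 rows (8.13%). In the direct comparison 72 of 85 lay above the all-gene median and 13 below, with a median change of 0.30 against 0.01 over all genes. The difference was broad but small: 0 of 85 reached 2-fold either way, and 11 reached 1.5-fold higher and 0 reached 1.5-fold lower. Over all genes 6.88% lay at least 1.5-fold apart, 2.68% higher and 4.19% lower. Summed over the 85 genes, the miR-1825 library had 2132 RPKM and the miR-590-3p library 1641 RPKM, against 757 RPKM with cel-miR-67 and at most 1294 RPKM in the others. These lists were chosen with earlier results known, and that both libraries stood high in them was the starting point.

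By role, the kinetochore and checkpoint list (43 genes, median 0.30, 39 above the all-gene median) and the cytokinesis list (20 genes, median 0.30, 18 above) were higher with miR-1825. Here a list is called higher or lower where its median lies at least 0.2 from that of all genes and at least 2 in 3 of its members share that side. The entry list of 23 genes, with a median of 0.21 and 16 above, fell just short of that distance, at 0.1996 from all genes, and passed it under 5 of the other settings tried, so its call depended on the setting. *Ect2*, which tells the cell cortex where to build the contractile ring, was at 66.4 RPKM with miR-1825 and 38.0 RPKM with miR-590-3p. The other libraries gave 29.4 RPKM (miR-199a-3p), 30.1 RPKM (miR-373-3p), 20.9 RPKM (miR-302d-3p), 23.5 RPKM (miR-33b*) and 12.1 RPKM (cel-miR-67), all below both. Its change of 0.79 was the largest of the cytokinesis genes. *Kif20a*, the kinesin that carries regulators to the midzone of the spindle, was at 96.3 and 58.8 RPKM, with at most 42.9 RPKM elsewhere. *Prc1*, which bundles the midzone microtubules, was at 157 and 103 RPKM, with at most 78.8 RPKM. *Aspm*, a protein of the spindle poles, was at 18.3 and 10.6 RPKM, with at most 8.10 RPKM.

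At the kinetochore *Oip5*, which helps load the centromeric histone, had the largest change of all 85, 0.92, at 16.7 RPKM with miR-1825 and 8.36 RPKM with miR-590-3p. Here miR-590-3p was the third highest, after miR-33b* at 10.2 RPKM. The miR-590-3p library was the second highest of the 7 in 58 of the 85 genes and the highest in 10. *Knstrn*, needed for the parting of sister chromatids, was at 42.9 and 25.9 RPKM. *Cenpf*, which links kinetochores to motors, was at 30.9 and 19.9 RPKM, with at most 16.0 RPKM elsewhere. The 4 subunits of the Ndc80 complex, the clamp that holds microtubules, were all higher with miR-1825 but unequally, with *Spc24* at 0.63, *Ndc80* at 0.52, *Spc25* at 0.30 and *Nuf2* at 0.26.

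Among the entry genes *Ccnb1*, the cyclin B1 whose kinase complex starts mitosis, was at 107 RPKM with miR-1825 and 66.4 RPKM with miR-590-3p. The other libraries ran from 10.4 RPKM (cel-miR-67) to 56.3 RPKM (miR-373-3p). *Nek2*, a centrosomal kinase, was at 45.3 and 28.2 RPKM with at most 20.5 RPKM elsewhere, and *Aurka*, the spindle pole kinase Aurora A, at 30.0 and 20.2 RPKM with at most 13.0 RPKM. The partner kinase of cyclin B1, *Cdk1*, differed less, at 59.3 and 48.4 RPKM, a change of 0.29. *Top2a*, the topoisomerase that untangles chromosomes and belongs to a separate list, was at 132 and 88.5 RPKM, with 29.8 to 67.8 RPKM elsewhere. The cohesin and condensin list as a whole lay near the all-gene median (19 genes, median 0.08).

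The 6 mitotic genes with the smallest change, chosen for that, were *Lin9*, *Lin52*, *Lin54* and *Lin37* of the MuvB core, the factor *Foxm1* and the cyclin *Ccnf*, between −0.09 and 0.06. *Mybl2*, which encodes B-Myb, had a change of −0.19. *Foxm1* was at 5.78 RPKM with miR-1825 and 6.17 RPKM with miR-590-3p, both above the 2.42 to 4.55 RPKM of the other 5. *Lin9* was at 14.2 and 14.0 RPKM, within the 9.55 to 14.4 RPKM elsewhere. Lower with miR-1825 were *Arhgef39* at −0.51 (27.0 and 38.7 RPKM), *Mis12* at −0.27 and the kinase *Mastl* at −0.26.

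The DNA replication genes leaned the other way. Of 43 licensing and fork genes 34 lay below and 9 above the all-gene median, with a median change of −0.18, which is just under the distance at which a list is called, although 2 of the other settings passed it. Of the 43, 0 lay 2-fold apart (1.33% of all rows), 0 lay 1.5-fold higher (2.68%) and 3 lay 1.5-fold lower (4.19%). Their RPKM summed to 527 with miR-1825 and 630 with miR-590-3p, inside the 509 (cel-miR-67) to 675 RPKM of the other 5. The miR-1825 library was the lowest of the 7 in 15 of the 43 genes and the miR-590-3p library in 2. Over all rows these shares were 16.5% and 11.2%.

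Within that list the loader *Cdc6*, which brings the helicase to origins, was at 2.71 RPKM with miR-1825 and 4.95 RPKM with miR-590-3p, with 4.07 to 5.95 RPKM elsewhere, so miR-1825 was below all others. Its change was −0.68, and the counting interval of the ratio ran from −1.09 to −0.65 in log2. Among the helicase subunits *Mcm2*, *Mcm3*, *Mcm4* and *Mcm6* were lower, at −0.47, −0.44, −0.42 and −0.63, while *Mcm5* and *Mcm7* are not given here. *Mcm6* was at 18.6 RPKM with miR-1825 and 29.3 RPKM with miR-590-3p, against 20.6 RPKM with miR-33b*, 22.2 RPKM with cel-miR-67 and 26.5 to 31.8 RPKM in the remaining 3. *Pold1*, the catalytic subunit of polymerase delta, was at 2.92 and 5.15 RPKM, with 3.41 to 6.39 RPKM elsewhere. *Prim1*, the primase subunit that makes the RNA primer, was at 38.4 and 57.1 RPKM, but there miR-590-3p stood with miR-199a-3p (61.0 RPKM) above the other 4 at 34.7 to 41.1 RPKM. *Gmnn*, the geminin that blocks licensing after replication has begun, had the highest change of the list, 0.27.

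**Figure D3:**
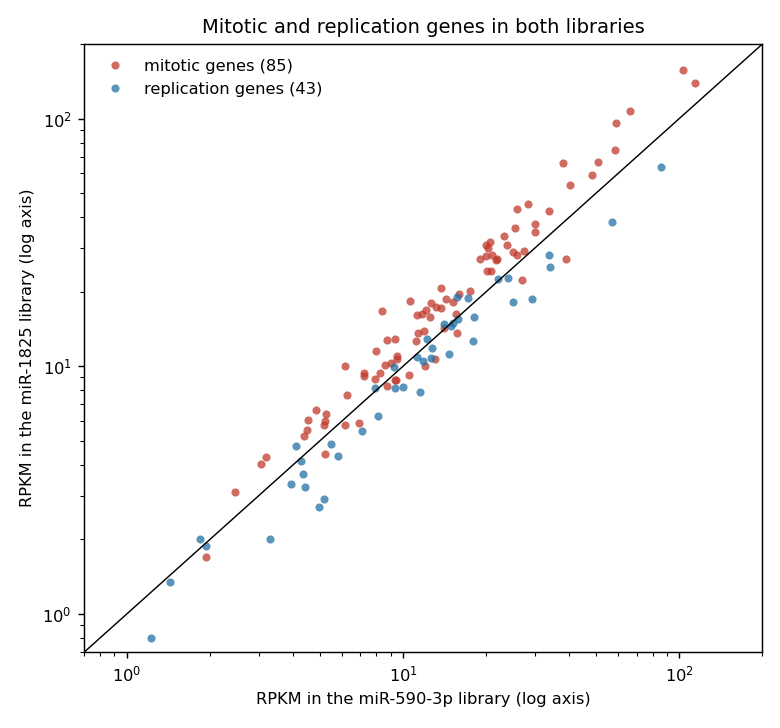
RPKM in the miR-1825 library against RPKM in the miR-590-3p library, both on log axes, for the 85 mitotic genes (red) and the 43 replication genes (blue), with the line of equal values. Most red points lie above the line (72 of 85 above the all-gene median) and most blue points below it (34 of 43 below that median).

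The supply of nucleotides and the G1 genes gave mixed pictures. *Dut*, which clears dUTP before it enters DNA, was the most different of 25 nucleotide genes, at 33.2 RPKM with miR-1825 and 66.7 RPKM with miR-590-3p, the lowest and the highest of the 7. *Umps*, which completes the making of uridine monophosphate, was at 14.1 and 22.5 RPKM, with 18.4 to 24.3 RPKM elsewhere. The thymidine kinase *Tk1* was at 11.4 and 17.0 RPKM, both at least 2-fold above the 5.27 RPKM of cel-miR-67. Over that list the median was −0.06. Of the G1 genes (22, median 0.02) *Ccnd1*, cyclin D1, was at 29.1 RPKM with miR-1825 and 18.6 RPKM with miR-590-3p, where cel-miR-67 also gave 18.6 RPKM and miR-302d-3p gave 5.14 RPKM. *Ccne1*, cyclin E1, went the other way, at 5.33 and 8.26 RPKM, with miR-590-3p the highest of the 7. *E2f1*, the factor that drives S-phase genes, was at 4.68 and 7.06 RPKM, again with miR-590-3p on top.

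Mitotic and replication genes also differed in the letters of their promoters. Promoters were 300 bases long, from 250 before to 50 after the RefSeq start on the rat build GRCr8, and existed in the table for 69 of the 85 mitotic genes, 37 of the 43 replication genes and 8080 of 11933 distinct gene symbols that passed the filter. The cell cycle homology element, which recruits the MuvB complex, was searched as TTTGAA on both strands. It was found in 41 of 69 mitotic promoters (59.4%), 3 of 37 replication promoters (8.11%) and 917 of all 8080 (11.3%). The CCAAT box, searched on both strands by the letters of its name, was in 58.0%, 64.9% and 38.3% in the same order. The E2F core was searched on both strands as TTCCCGC and, in the other common form, as TTGGCGC, and was in 14.5%, 54.1% and 13.0%. None of these letter runs contains another, although neighbouring matches may overlap. The CCAAT and E2F searches were added after the values had been seen. A match of letters is a description and not evidence of a bound site. Promoters of 2 mitotic and 2 replication genes are shown from 5′ to 3′ on the strand of the gene. The mitotic ones had the highest changes among promoters holding the homology element. The replication ones had the lowest changes among promoters holding the E2F core. Each shown promoter thus holds its letters by choice. The cell cycle homology letters are in capitals for *Ect2* (chr2:111966577-111966876, minus strand) and *Aspm* (chr13:53625334-53625633, plus strand). The E2F core is in capitals for *Mcm6* (chr13:42404303-42404602, minus strand) and *Prim1* (chr7:1031212-1031511, plus strand). Other searched letters were left small, such as the E2F core form gcgccaa in *Ect2*.
Ect2: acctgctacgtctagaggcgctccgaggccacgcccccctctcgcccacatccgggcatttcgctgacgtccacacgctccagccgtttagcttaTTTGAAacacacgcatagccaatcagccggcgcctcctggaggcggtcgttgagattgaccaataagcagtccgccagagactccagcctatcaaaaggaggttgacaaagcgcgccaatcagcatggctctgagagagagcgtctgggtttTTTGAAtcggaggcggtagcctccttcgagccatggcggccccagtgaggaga
Aspm: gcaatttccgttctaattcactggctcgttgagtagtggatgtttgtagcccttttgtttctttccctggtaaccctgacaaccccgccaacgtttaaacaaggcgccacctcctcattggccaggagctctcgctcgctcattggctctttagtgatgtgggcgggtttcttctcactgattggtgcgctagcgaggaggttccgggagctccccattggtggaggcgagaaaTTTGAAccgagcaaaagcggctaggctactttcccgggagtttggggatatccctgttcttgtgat
Mcm6: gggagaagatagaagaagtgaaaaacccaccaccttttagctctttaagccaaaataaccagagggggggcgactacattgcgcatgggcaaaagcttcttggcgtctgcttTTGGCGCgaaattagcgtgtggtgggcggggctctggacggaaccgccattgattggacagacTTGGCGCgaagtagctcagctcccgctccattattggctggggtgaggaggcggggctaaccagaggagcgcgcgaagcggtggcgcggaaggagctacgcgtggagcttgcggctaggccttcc
Prim1: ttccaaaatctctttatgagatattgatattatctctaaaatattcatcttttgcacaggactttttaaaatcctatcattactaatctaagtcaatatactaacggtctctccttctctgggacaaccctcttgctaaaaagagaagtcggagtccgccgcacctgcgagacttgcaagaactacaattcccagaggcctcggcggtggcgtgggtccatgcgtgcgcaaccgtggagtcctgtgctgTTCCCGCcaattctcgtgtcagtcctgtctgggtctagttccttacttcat

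**Figure D4:**
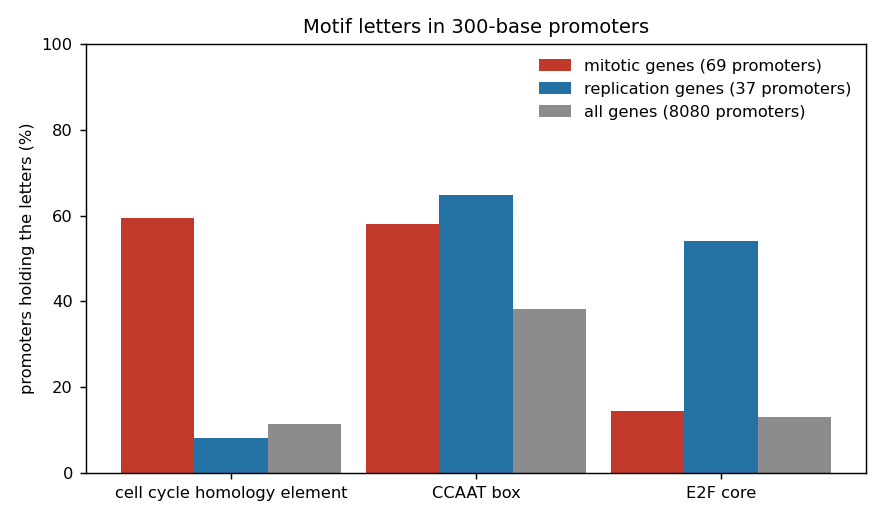
Share of 300-base promoters that hold the letters of the cell cycle homology element, the CCAAT box or the E2F core, for mitotic genes (red, 69 promoters), replication genes (blue, 37) and all genes (grey, 8080). The homology element is in 59.4% of mitotic and 8.11% of replication promoters, and the E2F core in 14.5% and 54.1%.

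Inhibitors of the cell cycle were higher with miR-1825 together with the mitotic genes. All 13 measured genes of the list of cyclin kinase inhibitors, Gadd45 and the Btg/Tob family lay above the all-gene median, with a median of 0.29. Of these, 1 lay at least 2-fold higher (0.511% of all rows) and 3 at least 1.5-fold higher (2.68%). The miR-1825 library had the highest value of the 7 in 9 of the 13 genes (19.2% of all rows). *Cdkn2a*, which encodes p16 and p19Arf, was at 3.39 RPKM with miR-1825 and 1.17 RPKM with miR-590-3p, with 3.09 RPKM with miR-33b* and 1.01 to 1.87 RPKM in the other 4. It rested on 127 and 40 reads, and its change was 1.02. *Cdkn1a*, the inhibitor p21 that p53 induces, was at 15.1 and 9.03 RPKM, with 14.5 RPKM with miR-33b* and 5.44 to 10.3 RPKM in the other 4. *Cdkn1c*, p57, was at 2.40 and 1.22 RPKM, but both were far below the 12.8 RPKM of miR-302d-3p. *Cdkn2b*, p15, was at 7.18 and 5.00 RPKM, the highest and second highest of the 7.

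Genes known to be induced by p53 (20 measured) had a median of 0.27, with 13 above and 7 below the all-gene median, short of the 2 in 3 needed. The list passed under 3 of the other settings. *Tp53inp1*, a stress-induced partner of p53, was at 24.4 RPKM with miR-1825 and 13.0 RPKM with miR-590-3p, against 22.1 to 32.9 RPKM elsewhere. *Ccng1*, cyclin G1, was at 237 and 138 RPKM, with 77.0 RPKM with miR-199a-3p and 196 to 248 RPKM in the other 4. The ubiquitin ligase *Mdm2*, by contrast, was at 20.8 and 16.4 RPKM with 11.8 to 17.6 RPKM elsewhere, so that miR-1825 was the highest. *Bax*, which opens the mitochondrial outer membrane in cell death, had a change of −0.14.

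Genes of mitochondrial energy supply were lower with miR-1825. Among nuclear genes of the respiratory chain 47 of 56 lay below the all-gene median (median −0.22), in the citric acid cycle 18 of 21 (median −0.20, a call that 2 of the other settings lost), and in the carnitine shuttle and fatty acid oxidation 25 of 32 (median −0.26). At least 2-fold lower were 2 of 56, 0 of 21 and 2 of 32 in the same order, against 0.819% of all rows. Of these genes 0 were 2-fold higher, against 0.511% of all rows. Summed RPKM of the respiratory genes were 10871 with miR-1825 and 12677 with miR-590-3p, inside the 9673 to 13949 RPKM of the other 5. For fatty acid oxidation the sums were 1028 RPKM with miR-1825 and 1269 RPKM with miR-590-3p, and miR-1825 lay below the 1081 to 1482 RPKM of the other 5. Transcripts of the mitochondrial genome itself had a median of −0.11 over 11 genes and summed to 24163 RPKM with miR-1825 and 28073 RPKM with miR-590-3p, with 14980 to 30010 RPKM elsewhere. Of these 11 genes 7 lay below the all-gene median and 4 above. The share of mitochondrial reads, mostly ribosomal RNA, moved in the same direction as the lists of energy supply, as given above. Its part in them was not tested.

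Single genes stood out within these lists. *Uqcrq*, a subunit of respiratory complex III, was at 3.37 RPKM with miR-1825 and 16.9 RPKM with miR-590-3p. The others were at 9.45 RPKM (miR-199a-3p), 21.5 RPKM (miR-373-3p), 18.1 RPKM (miR-302d-3p), 16.9 RPKM (miR-33b*) and 16.9 RPKM (cel-miR-67). It rested on 135 and 615 reads. *Cox5b* of complex IV was at 147 and 288 RPKM, below the 189 to 311 RPKM elsewhere with miR-1825 and inside that range with miR-590-3p. *Ndufv2* of complex I was at 71.4 and 129 RPKM, the lowest and the highest of the 7. *Cox8b*, a complex IV subunit of heart and muscle, was at 7.14 and 16.6 RPKM, but it ran from 3.79 to 24.1 RPKM over the other 5 and neither library stood outside. *Sdha*, the flavoprotein of complex II, was at 114 and 191 RPKM, with a lower value of 92.2 RPKM with miR-199a-3p.

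In fatty acid oxidation *Cpt1b*, the muscle carnitine palmitoyltransferase that admits long fatty acids to mitochondria, was at 3.21 RPKM with miR-1825 and 9.23 RPKM with miR-590-3p. It was at 5.99 RPKM with miR-199a-3p and 11.1 to 14.2 RPKM in the other 4. *Mlycd*, which breaks down malonyl-CoA, the inhibitor of that enzyme, was at 5.72 and 13.7 RPKM, with 10.2 to 13.9 RPKM elsewhere. Both had their lowest value of the 7 with miR-1825. *Acads* and *Hadh*, enzymes of the oxidation cycle, had changes of −0.67 and −0.56, also with miR-1825 the lowest. *Cs*, citrate synthase, led the citric acid cycle at 129 and 179 RPKM, the lowest and the highest of the 7. *Pdk4*, the kinase that shuts pyruvate out of that cycle, was higher, at 2.66 and 1.59 RPKM. Glycolysis (24 genes, median −0.13, 18 below) and the synthesis of cholesterol and fatty acids (28 genes, median −0.17, 23 below) leaned the same way without reaching the distance.

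Families of mitochondrial proteins, examined after the values of *Tomm40* and *Mrpl45* had been seen, did not share those large differences. Of 75 mitochondrial ribosomal protein genes 50 lay below the all-gene median, with a median of −0.11, and *Mrpl45* at −1.33 was the only 1 at least 2-fold apart. Of 20 Tomm and Timm genes of the import machinery 13 lay below, with a median of −0.05, and *Tomm40* was the only 1 at least 2-fold apart. Cytosolic ribosomal proteins were on the other side, with 38 of 44 above the all-gene median, although their median of 0.17 did not reach the distance. *Rps16* led them at 96.9 RPKM with miR-1825 and 59.9 RPKM with miR-590-3p. Ribosomal protein genes have many processed copies in the genome, so reads of single members may be split and their values are uncertain.

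**Figure D5:**
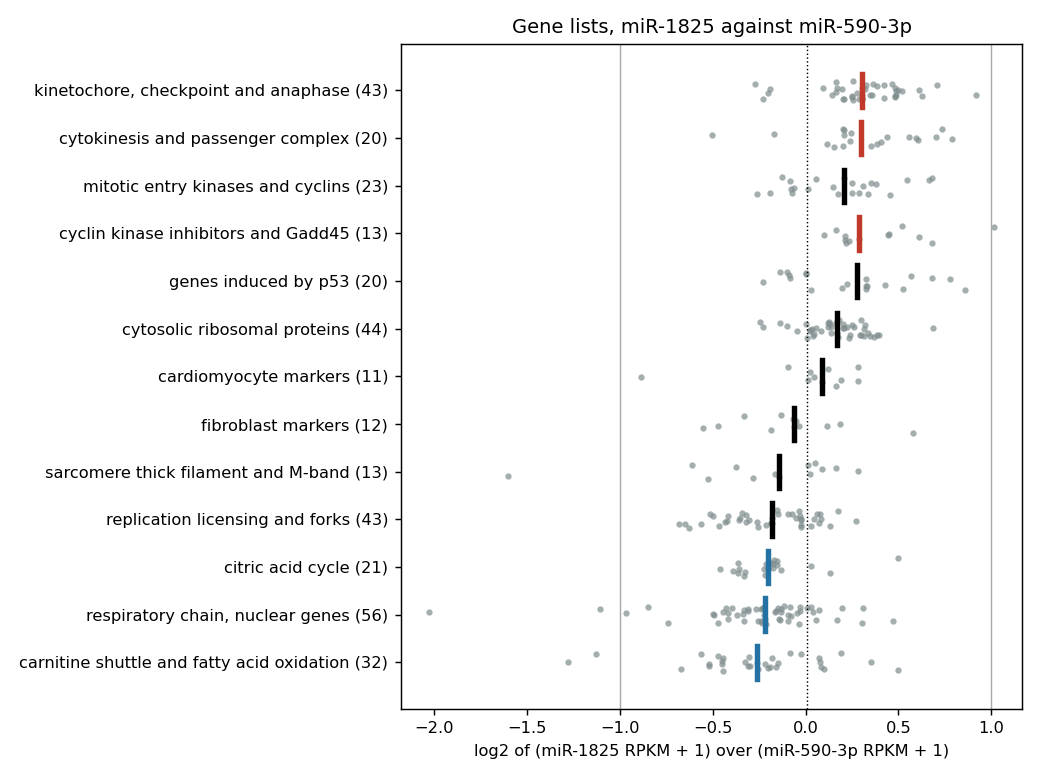
Log2 change of each measured gene (points) and median (bar) in 13 lists, miR-1825 over miR-590-3p, with the number of genes in brackets, the all-gene median as a dotted line and 2-fold as grey lines. Red bars mark lists called higher (kinetochore 0.30, cytokinesis 0.30, cyclin kinase inhibitors 0.29), blue bars lists called lower (citric acid cycle −0.20, respiratory chain −0.22, fatty acid oxidation −0.26) and black bars lists called neither.

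The contractile and electrical genes of the heart muscle cell differed singly, not as lists. Medians were −0.14 for 13 thick filament genes, −0.04 for 13 thin filament genes, −0.10 for 23 Z-disc genes, 0.01 for 23 calcium handling genes and 0.01 for 14 ion channel genes. *Tnni3*, the troponin I of the mature heart, was at 138 RPKM with miR-1825 and 257 RPKM with miR-590-3p, below the 222 to 469 RPKM elsewhere with miR-1825. Other markers differed little or in the other direction, such as *Tnnt2*, cardiac troponin T, at 1955 and 1607 RPKM and *Myh6*, alpha myosin heavy chain, at 1176 and 967 RPKM. *Ankrd1*, a stretch-responsive protein of the sarcomere that YAP also induces, was at 1052 RPKM with miR-1825 and 2043 RPKM with miR-590-3p. The other libraries ran from 1320 RPKM (miR-302d-3p) to 2753 RPKM (cel-miR-67), so miR-1825 was the lowest of the 7. *Hrc*, a calcium-binding protein of the sarcoplasmic reticulum, was at 0.968 and 3.25 RPKM on 66 and 202 reads, with 3.16 to 6.13 RPKM elsewhere. *Fkbp1b* and *S100a1*, regulators of calcium release, were also lowest with miR-1825, at changes of −0.95 and −0.86, on 34 and 19 reads there. *Nppa*, the atrial natriuretic peptide, was nearly equal, at 3054 and 3099 RPKM, both above the 561 to 2074 RPKM of the other 5.

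Of 6 genes reported as targets of proliferative miRNAs in cardiomyocytes, 1 differed by 2-fold. *Cfl2*, the muscle cofilin that severs actin filaments, was at 79.3 RPKM with miR-1825 and 197 RPKM with miR-590-3p, the highest of the 7. The remaining libraries gave 74.1 RPKM (miR-199a-3p), 69.2 RPKM (miR-373-3p), 58.2 RPKM (miR-302d-3p), 109 RPKM (miR-33b*) and 155 RPKM (cel-miR-67), so miR-590-3p and cel-miR-67 stood above the other 5. *Homer1* at 10.3 and 7.96 RPKM and *Hopx* at 21.3 and 16.4 RPKM had their lowest value of the 7 with miR-590-3p, at changes of 0.34 and 0.36. *Clic5* was at 5.96 and 4.76 RPKM, *Taok1*, a kinase upstream of the Hippo pathway, at 35.0 and 32.5 RPKM, and *Btrc*, which marks YAP for degradation, at 5.11 and 5.14 RPKM.

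The Hippo pathway, which restrains the growth of the heart by holding YAP out of the nucleus, lay at the all-gene median as a list (40 genes, median 0.02). The list was drawn widely and also held *Cfl2*, given above. Apart from *Cfl2*, the largest difference in the list was *Vgll3*, at 8.92 RPKM with miR-1825 and 16.6 RPKM with miR-590-3p. Then came the TEAD factor *Tead2* at 4.42 and 7.63 RPKM and the 14-3-3 protein *Ywhaz* at 108 and 72.8 RPKM. Genes induced by YAP (24, median −0.01) split, with *Ankrd1* at −0.96 and the classical targets *Ctgf* at 0.04 and *Cyr61* at 0.07. Of the TGF-beta genes (33, median 0.03) 1 lay at least 2-fold higher. *Tgfbr3*, the co-receptor betaglycan, was at 7.04 and 2.94 RPKM, the highest and the lowest of the 7. *Skil*, an inhibitor of Smad factors that TGF-beta induces, was at 22.0 and 14.7 RPKM, also the highest and the lowest of the 7.

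Matrix and inflammatory genes showed further single differences without a shift of their lists. *Col12a1* was at 40.5 RPKM with miR-1825 and 23.3 RPKM with miR-590-3p, and the collagen cross-linking enzyme *Lox* at 21.2 and 12.4 RPKM, both highest with miR-1825. *Col14a1* was lower, at 26.2 and 43.8 RPKM, with 33.4 to 85.0 RPKM elsewhere. Of 12 fibroblast markers 9 lay below and 3 above the all-gene median, and the largest changes were *Pdgfra* at 0.58, *Tcf21* at −0.55 and *Dcn* at −0.47. Among interferon genes (22, median −0.15) *Irf1* and *Cxcl10*, which answer to interferon gamma and NF-kappa B, were highest with miR-1825, at 9.37 and 5.04 RPKM and at 5.00 and 2.53 RPKM. *Usp18*, induced by type I interferon, was at 3.56 and 6.27 RPKM, inside the 2.51 to 10.6 RPKM elsewhere.

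Of all 46 lists, at the settings used, 3 were called higher with miR-1825, 4 lower and 39 neither. The fourth called lower, Schwann and neuronal markers, rested on 2 measured genes. The lists near the all-gene median included homologous recombination (29 genes, median 0.03), cardiac transcription factors (21, 0.07), endoplasmic reticulum stress (26, 0.09), antioxidant genes (32, −0.04), receptors of growth factors (34, −0.07), feedback genes of MAP kinase (23, 0.11), collagens and matrix (49, 0.05) and matrix proteases (27, 0.10). Within the stress list *Edem1*, which sends misfolded proteins to degradation, reached 0.74, at 19.9 RPKM with miR-1825 and 11.5 RPKM with miR-590-3p.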

How the data were processed

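The authors deposited RPKM of 17141 genes in 7 libraries and, as a ratio, each RPKM over that of the cel-miR-67 library. Per the submitters' processing notes the tools were STAR 2.7 and edgeR and the build was Rnor_6.0. Annotation, read counter and strand setting were not given in the sources used here, so reads of overlapping or antisense genes cannot be told apart. The values of the 7 single-sample files equalled those of the series table. The deposited ratios are quotients of those RPKM (117199 checked, relative tolerance 1e-06) and were not used further.

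Rows averaging 1 RPKM or more were kept. The change was log2 of (miR-1825 RPKM + 1) over (miR-590-3p RPKM + 1), a scale on which changes of low genes come out too small. A gene counted as apart at 2-fold. With 1 library per miRNA no test was made. Whole reads were recovered from the RPKM (100% of rows came out whole within 0.002 to 0.05 reads), and gave 95% intervals (Clopper-Pearson) for the ratio without a pseudocount, which cover counting error only. The recovery and the comparison were tested on simulated data.

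The 46 gene lists held 1114 symbols, of which 1071 were measured and 966 genes passed the filter. The comparison, the lists and the tests were chosen with earlier results of these data known. Named genes were the 15 highest and 15 lowest protein-coding genes with a symbol and a mean of at least 5 RPKM, the 8 with the largest change among those outside the other 5 libraries in opposite directions, the mitotic genes of smallest change, and up to 4 genes per list at least 0.3 from the all-gene median. Reported targets and markers could all be named. Other genes were named after their values were seen, to complete a complex or family. 3 matches of a list symbol to another gene's synonym were removed as wrong, titin among them, which is not analysed here. 1 gene that the rule names is not reported here. Promoters are from RefSeq on GRCr8. Alternatives were the pseudocount, the filter, the gene types and the scaling. Python 3.11.15, numpy 2.4.6, pandas 2.3.3, scipy 1.17.1 and matplotlib 3.10.9 were used.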

Additional observations from a re-analysis of the deposited data

How the results depend on the processing

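The counts of genes at least 2-fold apart depended on the settings: 63 higher and 101 lower became 130 and 244 with a pseudocount of 0.1, 8 and 16 with a pseudocount of 5, 24 and 59 for genes averaging 5 RPKM or more, and 331 and 517 at 1.5-fold, a limit chosen after seeing the data. Among protein-coding rows 18 were higher. With reads scaled to listed genes without mitochondrial rows 153 were lower. The SD across genes ran from 0.22 (pseudocount 5) to 0.44 (pseudocount 0.1), and the median of the mitotic genes against all genes from 0.21 to 0.30. Relative to all genes the list medians ran over the settings from 0.24 to 0.32 (kinetochore), 0.26 to 0.35 (cytokinesis), 0.21 to 0.29 (inhibitors), −0.24 to −0.21 (respiratory chain), −0.23 to −0.19 (citric acid cycle), −0.32 to −0.22 (fatty acid oxidation), −0.21 to −0.11 (replication), 0.14 to 0.25 (mitotic entry) and 0.16 to 0.31 (p53). Calls near the limit of 0.2 depended on the setting. The citric acid cycle lost its call with a pseudocount of 5 and with scaling to listed reads. Mitotic entry became higher under 5 settings (a pseudocount of 0.1, no filter, the higher filter and both scalings to listed reads). Replication became lower under 2 and the p53 list higher under 3. Further lists changed call only at the higher filter, apart from the reported targets (pseudocount 0.1) and the 2 Schwann markers. Of the values of named genes 1594 stayed within the counting error of the ratio and 163 moved further, and 398 list medians moved by less than 0.1 and 15 by more. No paired analysis was possible because each miRNA had 1 library, and for the same reason no library could be left out. The planned count of seed matches was not run, since neither miRNA's sequence is in the reference tables used here. The short RNAs higher with miR-1825 had a median of 16 reads.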

Other observations

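The largest changes among protein-coding rows belonged to 2 rows without a gene name. Of all rows, 3 miRNA rows without a gene name had larger ones, up to 3.20. AABR07015081.2 was at 296 RPKM with miR-1825 and 39.4 RPKM with miR-590-3p, a change of 2.88. The other libraries gave 89.2 RPKM (miR-199a-3p), 9.84 RPKM (miR-373-3p), 18.1 RPKM (miR-302d-3p), 79.1 RPKM (miR-33b*) and 251 RPKM (cel-miR-67). AABR07015057.1 was at 86.2 and 11.6 RPKM, with 28.9, 4.98, 6.72, 24.2 and 94.8 RPKM in the other libraries in the same order. In both rows miR-1825 and cel-miR-67 were the 2 highest libraries. The rows rested on 5285 and 641 reads and on 4269 and 525 reads. Whether they share reads with each other or with other copies of a sequence was not tested.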
